A study of Mus musculus with 4 samples.

Results

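Chromatin accessibility was described around 10 genes of glutathione transfer and antioxidant defence in cultured mouse chondrocytes. The genes were Gstm1, Gstm2 and Gstm5, Sod1, Sod2 and Sod3, Hmox1, Nqo1, Cat and Nfe2l2. They were taken from a list of names, out of 21887 protein-coding genes, and every ATAC-seq peak in or within 50 kb of one of them was kept. Peaks of the libraries that overlapped by at least 1 bp were joined into a site, which gave 131 sites of 170558 on chromosomes 1 to 19, X and Y. The cells were primary chondrocytes isolated from knee joint cartilage, and the mice were C57Bl/6 at postnatal day 0 to 4. Passage 0 (P0) cells had been in culture for less than 24 hours, and passage 8 (P8) cells had been replated each time their number had doubled, a model of chondrocyte dedifferentiation. No genotype or drug differed between the groups. There were 2 libraries of each passage, and the sources used here do not say whether they came from separate mice or cultures. The peak names separate the libraries without giving replicate numbers, so the libraries are named A and B within each passage, and paired values below always give A before B.

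Glutathione S-transferases attach glutathione to reactive compounds, and the mu class (Gstm) is encoded by a cluster of neighbouring genes. Superoxide dismutases turn superoxide into hydrogen peroxide in the cytosol (Sod1), in mitochondria (Sod2) and outside the cell (Sod3), and catalase (Cat) breaks hydrogen peroxide down. NRF2, the product of Nfe2l2, binds antioxidant response elements with small MAF proteins and switches on genes such as Hmox1, which degrades heme, and Nqo1, which reduces quinones. In cartilage, chondrocytes live at low oxygen, and oxidative stress is one of the stimuli studied in dedifferentiation.

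ATAC-seq marks open chromatin by cutting it with the Tn5 transposase. For each peak, the pileup is the number of tags over its summit, and the fold enrichment is that pileup over the local background, both with 1 tag added. A strong or weak site below is one of high or low fold enrichment. The lowest background, a measure of depth, amounted to 194 and 162 tags per 10 kb at P0 and to 140 and 134 at P8. The tables held 145703 and 119974 peaks at P0 and 89610 and 99784 at P8. Both P0 libraries were thus the deeper ones and held more peaks, and every comparison of number below carries that difference. All 8 chondrocyte markers examined, Col2a1, Acan, Sox9 and Comp among them, had a peak within 1 kb of the start in both P0 libraries, and 7 had one in each P8 library, where Matn1 had none. The 50 kb windows of those markers held 201 and 178 peaks at P0 and 95 and 128 at P8. Of 5 fibroblast markers, 5 and 5 had a start peak at P0 and 4 and 3 at P8, with 79, 63, 54 and 62 peaks in their windows. Start peaks were not called in any library at Ptprc, Csf1r, Adgre1 and Itgam of blood cells or at Pecam1 and Cdh5 of endothelium, whereas Cd68 had one in both P0 libraries and Kdr and Tek had one in all 4. The skeletal muscle markers had 1 start peak in each library, at Myod1. Their windows held 24 and 18 peaks at P0 and 9 and 11 at P8. Windows of the blood and macrophage markers held 55 and 36 at P0 and 27 and 34 at P8. Those of the endothelial markers held 36 and 30, then 19 and 29, so lower totals at P8 were not particular to the chondrocyte markers. In bulk samples like these, fewer cells of a type and less signal per cell cannot be told apart.

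The upstream sequences of 4 members are shown because the start-site peak with the highest fold enrichment over local background (Gstm5), 2 starts with a match to the antioxidant response element (Sod1 and Nfe2l2) and the only start with a higher fold enrichment at P8 (Gstm2) lie on them. Each is the run of 250 bases before the start in RefSeq on GRCm38.p6, 5′ to 3′ on the gene's strand, at chr3:107895604-107895853 on the plus strand for Gstm5, chr16:90220512-90220761 on the plus strand for Sod1, chr2:75704664-75704913 on the minus strand for Nfe2l2 and chr3:107986421-107986670 on the minus strand for Gstm2. Capitals mark matches to TGACNNNGC, the core of the antioxidant response element, or to TGANTCA, the AP-1 motif, on either strand, 2 patterns that can overlap.
Gstm5: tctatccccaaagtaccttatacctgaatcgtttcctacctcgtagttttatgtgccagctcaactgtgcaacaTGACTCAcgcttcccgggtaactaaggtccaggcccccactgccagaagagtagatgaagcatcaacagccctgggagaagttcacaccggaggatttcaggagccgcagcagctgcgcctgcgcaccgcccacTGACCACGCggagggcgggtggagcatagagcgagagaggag
Sod1: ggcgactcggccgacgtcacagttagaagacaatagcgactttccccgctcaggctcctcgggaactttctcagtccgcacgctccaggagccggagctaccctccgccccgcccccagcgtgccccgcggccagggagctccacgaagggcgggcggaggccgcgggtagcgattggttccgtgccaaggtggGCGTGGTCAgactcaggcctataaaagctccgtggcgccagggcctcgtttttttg
Nfe2l2: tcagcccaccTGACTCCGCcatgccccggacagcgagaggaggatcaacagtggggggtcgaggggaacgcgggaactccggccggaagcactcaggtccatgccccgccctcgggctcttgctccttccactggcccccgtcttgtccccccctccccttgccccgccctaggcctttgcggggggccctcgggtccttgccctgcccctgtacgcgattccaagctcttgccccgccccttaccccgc
Gstm2: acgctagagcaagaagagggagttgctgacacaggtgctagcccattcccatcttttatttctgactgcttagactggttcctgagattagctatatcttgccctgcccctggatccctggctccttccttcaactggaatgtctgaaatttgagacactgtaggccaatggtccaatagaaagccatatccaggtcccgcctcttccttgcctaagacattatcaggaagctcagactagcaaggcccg
The Gstm5 run held the first motif 42 bases and the second 176 bases before the start. Sod1 had the first motif on the reverse strand at 56 bases, and Nfe2l2 had it at 240 bases. In all, TGACNNNGC was found in 3 of 9 upstream sequences of 8 members (Gstm1 has 2 annotated starts) and in 10.2% of 32851 sequences of the same length in the table, and TGANTCA was found in 1 of 9 and in 6.75%. The whole of the Gstm5, Sod1 and Nfe2l2 runs lay within called sites, and 148 of the 250 bases did so for Gstm2. A match is a description of the letters and not evidence of binding.

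The sites around the antioxidant genes were classed by the libraries that had a peak there, beside all sites near genes. Of the 131 sites, 49 had a peak in all 4 libraries, which is 37.4% against 34.5% of the 140253 sites near any protein-coding gene. There were 48 sites with P0 peaks only and 10 with P8 peaks only, or 36.6% and 7.63% against 39.7% and 10.0% of all sites near genes, and the other 73 (55.7% against 50.3%) had peaks at both passages. Taking equally many peaks from each library, those with the highest −log10 p, left 15 sites with P0 peaks only (16.9% against 23.0% of all sites near genes), 13 with P8 peaks only (14.6% against 19.9%) and 61 with both (68.5% against 57.1%). Without P0 library A, the counts of P0-only and P8-only sites were 25 and 17, and without P8 library B the P8-only count was 2. Both P0 libraries and neither P8 library had a peak at 13 sites, or 9.92% against 16.7% of all sites near genes. No member site showed the reverse, a peak in the P8 pair and in neither P0 library (0 of 131), against 1.6% of all sites. There were 3 such sites with equally many peaks. With a library left out, the rule asks only for the libraries that remain and is easier to meet. The count was then 3 without P0 library A, 8 without P8 library A and 2 without P8 library B. The last 2 counts rest on a single P8 library, and no share over all sites is given for these settings. These shares carry no test, since sites are not replicates. Under the same easier rule, the count of 13 sites was 25 and 39 when P0 library A or B was left out, and 14 and 27 when P8 library A or B was. A rise is built into that rule, and these counts have no share over all sites beside them.

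**Figure D1:**
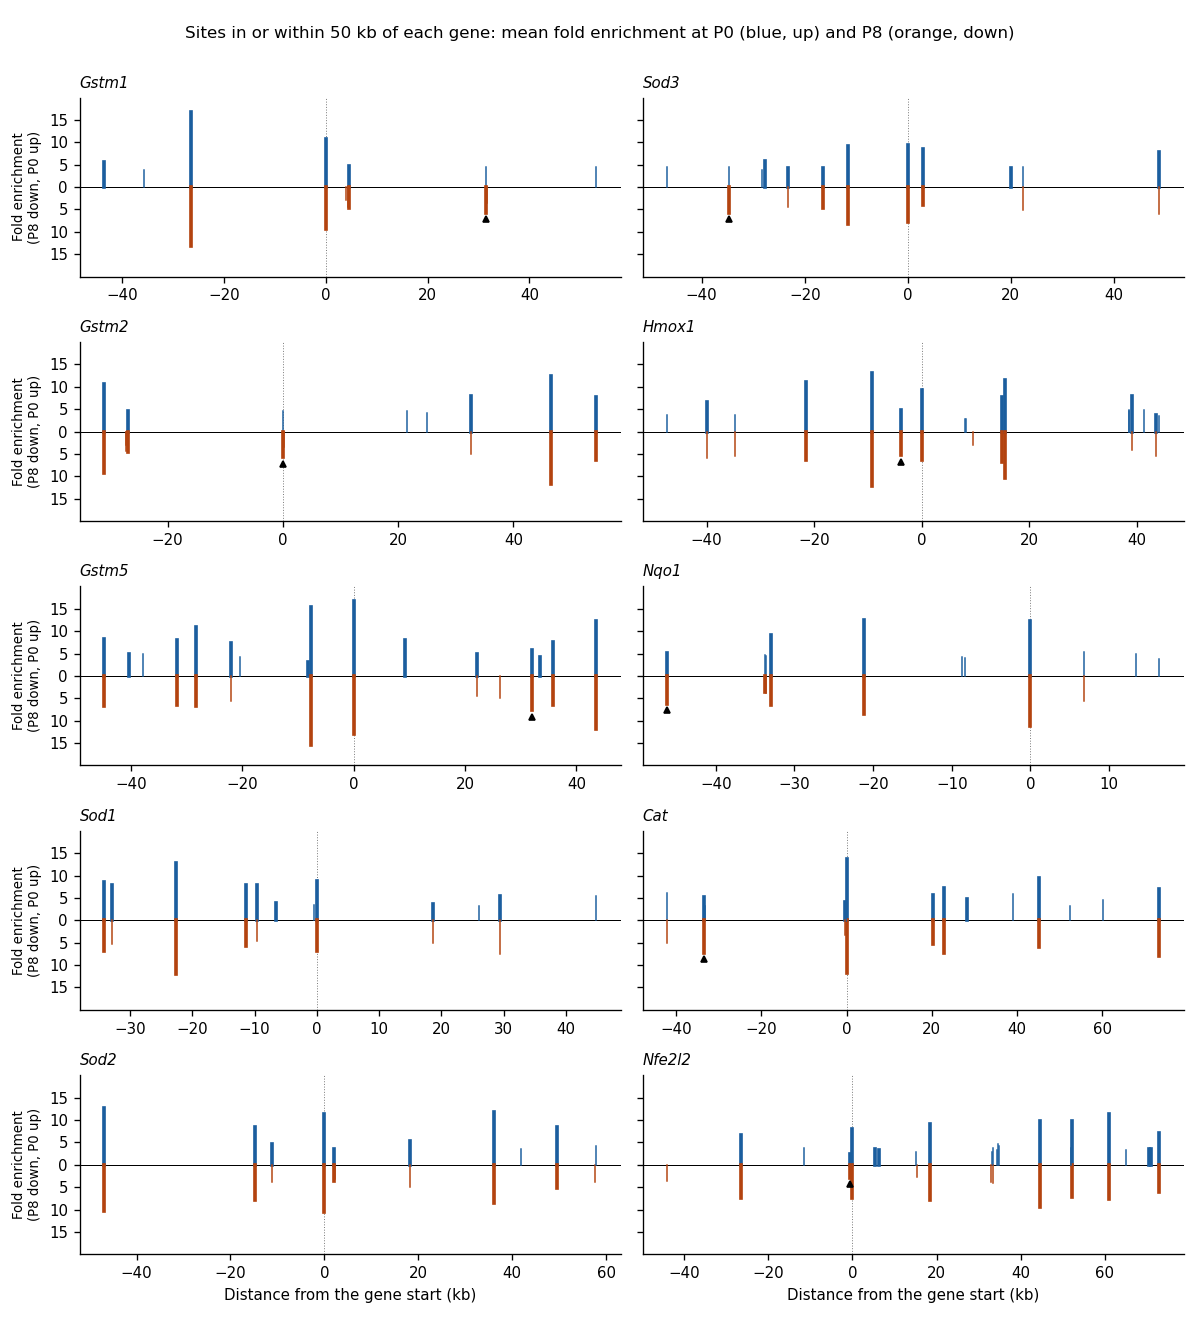
Each bar is a site in or within 50 kb of the gene, placed by its distance from the gene start in kb (positive into and beyond the gene; for Sod3 and Hmox1, measured from the lower-numbered gene end). Bars up give the mean fold enrichment at P0 and bars down that at P8, thick where both libraries of the passage had a peak and thin where 1 had, and a triangle marks the sites where fold enrichment was higher in both P8 libraries. Start sites reach 16.8 at P0 and 13.0 at P8 for Gstm5, and 7 of 131 sites carry the triangle, 1 of them seen in the windows of both Gstm1 and Gstm2.

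Sites at gene starts were the strongest. At the starts of members lay 14 sites, with a median highest fold enrichment of 9.29, and 10 of them were held by all libraries. At the starts of other genes in the windows, such as Gstm4, Wtap and Mcm5, lay 17 sites with a median of 8.69. Away from starts, 16 sites were inside members (median 4.65), 27 inside other genes (median 5.38) and 57 between genes (median 4.85). By fold enrichment, 53 of the 131 sites were higher in both P0 libraries than in both P8 libraries, counting a missing peak as the lowest value, against 39.3% of all sites near genes (40.5% of member sites). In the other direction, 7 sites were higher in both P8 libraries, against 6.96% of all sites near genes (5.34% of member sites). With each library divided by its median over sites held by all 4 libraries, 33 member sites were higher at P0 and 21 at P8, which is 25.2% and 16.0% of them against 27.2% and 15.5% of all sites near genes. The count of 7 was 25 without P8 library A and 11 without P0 library A, and the count of 53 was 82 without P0 library B. With a library left out, a call needs fewer libraries and is easier to make, and the share over all sites under that rule is not given.

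The number of peaks was higher at P0 around some of the genes and overlapped between passages around the others. Together the windows held 112 and 94 peaks at P0 and 70 and 86 at P8, with means of 103 ± 12.7 and 78.0 ± 11.3 (SD, n = 2 each). The ratio of P0 to P8 was 1.32, beside 1.41 for all peaks. The exact two-sided permutation p was 0.33, the smallest that 2 libraries against 2 can give, so this permutation test cannot pass 0.05 for any value here. Among the peaks that would also be called if every library had the lowest of the 4 backgrounds, the ratio was 1.27. When only the 88578 peaks with the highest −log10 p of each library were taken, it turned to 0.944. Each P0 library exceeded each P8 library in peak number around 4 of the 10 genes, against 48.3% of genes, and no member had the opposite order, against 3.95% of genes. Without P0 library B, and also without P8 library B, the count of 4 became 7. A call then needs fewer libraries and is easier to make, so the 7 is not to be set against 48.3%. The share of genes under that rule is not given.

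**Figure D2:**
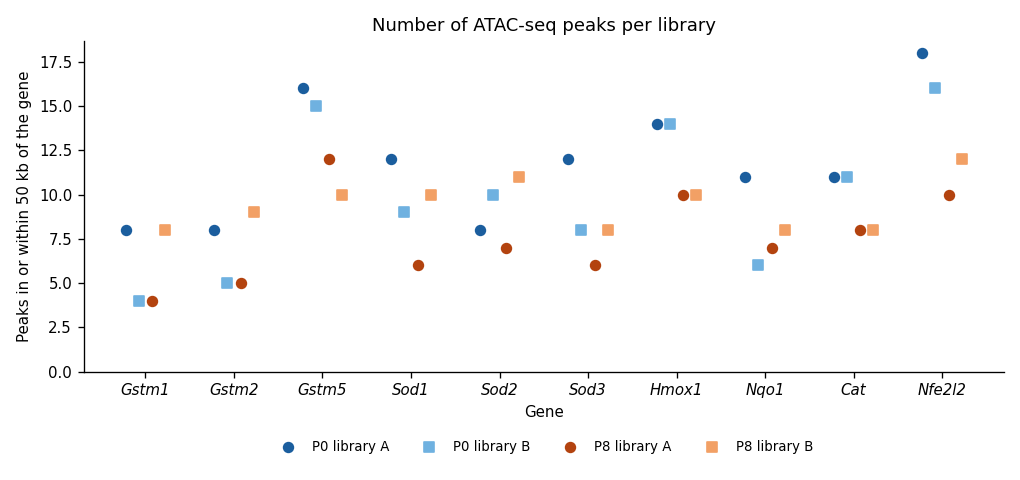
Peaks in or within 50 kb of each gene (y axis, number) in each of the 4 libraries, 1 point per library. The P0 points lie above both P8 points for Gstm5, Hmox1, Cat and Nfe2l2 and overlap with them for the other 6 genes.

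Nfe2l2 had the largest difference of means, with 18 and 16 peaks at P0 and 10 and 12 at P8. Gstm5 had 16 and 15 peaks at P0 and 12 and 10 at P8, and Hmox1 had 14 and 14 at P0 and 10 and 10 at P8. Around Cat there were 11 and 11 peaks at P0 and 8 and 8 at P8. In these 4 genes every P0 library was above every P8 library, but none of the 4 calls was made when equally many peaks were taken from each library. Nqo1 then had more peaks in both P8 libraries, beside 16.3% of all genes higher at P0 and 21.6% higher at P8. Around Gstm1, in contrast, 8 and 4 peaks at P0 stood beside 4 and 8 at P8. The windows of Gstm2 (8 and 5, then 5 and 9), Sod1 (12 and 9, then 6 and 10), Sod2 (8 and 10, then 7 and 11), Sod3 (12 and 8, then 6 and 8) and Nqo1 (11 and 6, then 7 and 8) gave peak numbers whose ranges met. The median log2 ratio of peak number, P8 over P0, was −0.38 for the 10 members and −0.33 for all protein-coding genes.

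At the gene starts, all 10 members were open in both passages. A peak lay within 1 kb of the start in all 4 libraries for 9 of them, beside 13014 of the 21887 protein-coding genes. Gstm2 lacked a start peak in P0 library B. Over all protein-coding genes, 15073 had a start-site peak. For Sod3 and Hmox1 either gene end was accepted, and the peak lay at the lower-numbered end, from which their distances are given (below the gene means lower coordinates). Fold enrichment there was higher in both P0 libraries at 8 of the 10, against 61.6% of the 15073 genes with a start-site peak, and higher in both P8 libraries at 1, Gstm2, against 3.81%. Among genes with a start-site peak in all libraries, the median log2 ratio of P8 over P0 was −0.23 for 9 members and −0.23 for 13014 genes. These 9 member starts thus differed about as much as starts in general. Gstm2, at 0.34, is left out of that median. Relative to each library's median over all genes, 2 members were higher at P0 (Gstm5 and Hmox1) and 2 at P8 (Gstm2 and Nfe2l2), against 31.4% and 21.5% of genes. With pileup divided by each library's median background in place of local fold enrichment, the median log2 ratio was −0.44 for all 10 members. That median counts Gstm2, at 0.51 on 1 P0 library. The 13014 genes had −0.52, but each of them has a start-site peak in all libraries, so the sets are unlike and the medians are not compared.

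**Figure D3:**
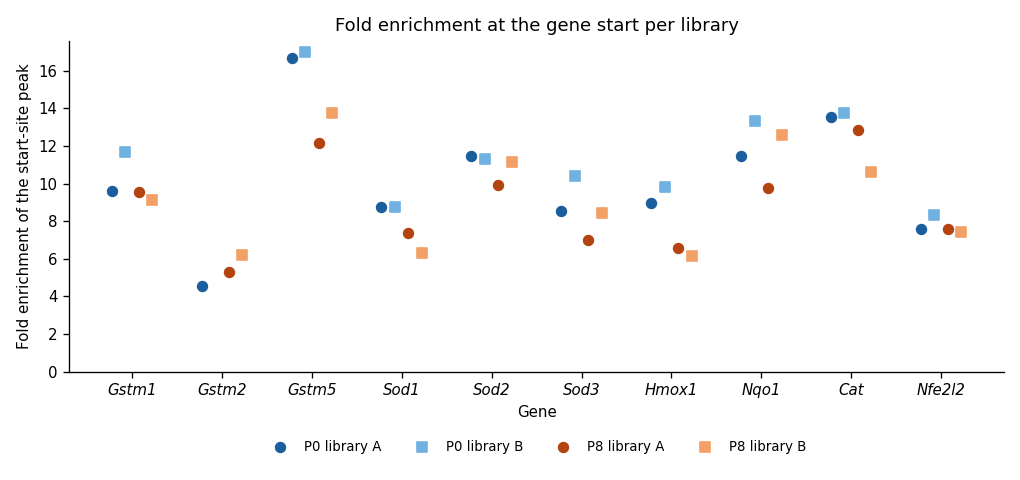
Fold enrichment of the highest peak within 1 kb of the gene start (y axis, ratio over local background), 1 point per library and gene. Gstm5 lies highest, between 12.2 and 17.0, and Gstm2 lowest, between 4.55 and 6.23 with no point for P0 library B.

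**Figure D4:**
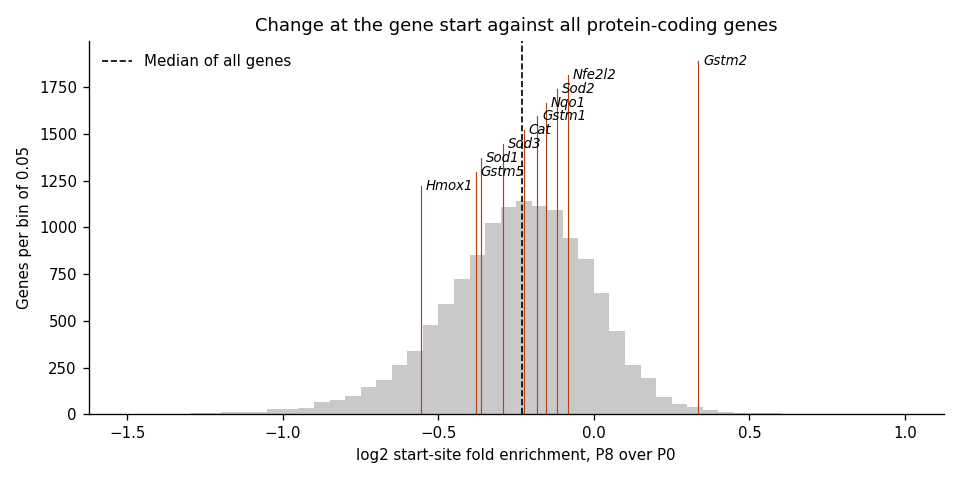
Histogram of the log2 ratio of start-site fold enrichment, P8 over P0, in bins of 0.05 for 13014 protein-coding genes with a start-site peak in all 4 libraries (1 gene lies outside the axis), with a line for each member. The dashed line is the median of all genes, −0.23; Hmox1 lies to its left at −0.55 and Gstm2, which rests on 1 P0 library, to its right at 0.34.

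In the order of mean fold enrichment at the start over the libraries, Gstm5 came first (14.9), followed by Cat (12.7), Nqo1 (11.8), Sod2 (11.0), Gstm1 (10.0), Sod3 (8.60), Hmox1 (7.88), Sod1 (7.81), Nfe2l2 (7.74) and Gstm2 (5.36). The range of each gene overlapped that of the one before it, with the exception of Gstm2, whose highest value lay below the lowest of Nfe2l2. The order is one of fold enrichment over local background, and it is neither one of pileup nor one of transcript level. By pileup over each library's median background, Nfe2l2 had 44.5 and 44.7 at P0 and 35.9 and 36.9 at P8, above Gstm5 with 32.4 and 31.7 at P0 and 20.2 and 24.1 at P8.

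The mu class transferases lie in 1 cluster on chromosome 3 and share part of their windows, 7 sites between Gstm1 and Gstm2 and 2 between Gstm2 and Gstm5. These genes are similar in sequence, and how the authors treated reads that align to several of them is not given in the sources used here. Gstm5 (107895854 to 107898685, plus strand) had fold enrichments at its start of 16.7 and 17.0 at P0 and 12.2 and 13.7 at P8. Both P0 values lay above both P8 values, with means of 16.8 ± 0.226 and 13.0 ± 1.11 (SD, n = 2) and a ratio of 1.3. Among start-site peaks of all genes, it stood at percentiles 98.4 and 97.6 at P0 and 91.4 and 95.5 at P8. The same start is annotated for the transcript 4933431E20Rik, so their signals cannot be told apart. A second strong site, inside Eps8l3 and 7.60 kb upstream of Gstm5, had 14.4 and 16.2 at P0 and 15.8 and 14.9 at P8, so that the passages overlapped there. Its other sites included 4 that were called in the P0 pair and in neither P8 library. The strongest of those lay 9.20 kb from the start, with 7.86 and 8.24 at P0, and the others lay at 40.3 and 8.25 kb upstream and 33.5 kb downstream, inside Gstm7. Also inside Gstm7, a site 32.1 kb downstream (chr3:107927960-107928129) ran the other way, with 5.41 and 5.99 at P0 and 8.51 and 6.83 at P8, a ratio of P8 over P0 of 1.35.

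Gstm1 (108012250 to 108017973, minus strand) had start-site fold enrichments of 9.62 and 11.7 at P0 and 9.58 and 9.12 at P8. The lowest P0 value was only just above the highest P8 value, and relative to all genes the log2 ratio was 0.03. The strongest site in its window by fold enrichment was the start of Gstm4, another mu class transferase, 26.5 kb upstream. Its values were 16.2 and 17.4 at P0 and 12.3 and 14.0 at P8. A site within Gstm1, 4.53 kb from the start, had 4.34 and 5.04 at P0 and 4.28 and 4.88 at P8, so the groups overlapped. A site 43.5 kb upstream had 6.21 and 5.03 at P0 and no peak at P8.

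Gstm2 (107981702 to 107986420, minus strand) differed from the other members in direction. Its start-site peak (chr3:107986294-107986568) had a fold enrichment of 4.55 in P0 library A and was not called in P0 library B, whereas it reached 5.31 and 6.23 at P8. The pileup was 10, 10 and 13 tags in the libraries with a peak, so the summit rested on few tags. The same values stood at percentiles 5.71, 13.6 and 21.3 of start-site peaks of all genes. Relative to all genes, the log2 ratio was 0.50. About 46.5 kb downstream, inside Gstm6, a far stronger site had 12.7 and 12.0 at P0 and 11.9 and 11.8 at P8, values that were almost level and overlapped once pileup was divided by each library's median background. Gstm3 and Gstm4, also in the cluster, had a single weak peak inside the gene in 1 P0 library and the strong start peak given above.

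Of the superoxide dismutases, Sod1 (chromosome 16) had start-site fold enrichments of 8.77 and 8.78 at P0 and 7.40 and 6.30 at P8. P0 was higher by 1.28 times, with means of 8.78 ± 0.00490 and 6.85 ± 0.772 (SD, n = 2). The log2 ratio of −0.36 became −0.72 for pileup over median background. The strongest site near Sod1 was another one, 22.7 kb upstream within Gm35714, with 12.4 and 13.2 at P0 and 11.0 and 13.0 at P8, where the passages overlapped. Sites 32.9 and 9.65 kb upstream had peaks in both P0 libraries and in P8 library B, all lower there, and 1 site, 6.53 kb upstream, was called in the P0 pair alone. Of 4 sites inside the neighbouring Scaf4, 2 had their highest value in P8 library B, and 1 of these, 29.4 kb from the Sod1 start, had 5.38 and 5.49 at P0 and at P8 no peak in library A and 7.58 in library B.

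Sod2, the mitochondrial enzyme (chromosome 17), gave 11.5 and 11.3 at P0 and 9.91 and 11.1 at P8 at its start, with means of 11.4 ± 0.0863 and 10.5 ± 0.864 (SD, n = 2). The size of the gap depended on the scale and on single libraries. The log2 ratio of P8 over P0 was −0.12 as deposited and 0.09 relative to all genes. For pileup over median background it was −0.54, where all genes had −0.52. Without P8 library A the deposited ratio was −0.03, and without P8 library B it was −0.20. A site 36.0 kb downstream had 11.4 and 12.4 at P0 and 8.33 and 8.70 at P8, and one 49.5 kb downstream had 8.77 and 8.21 at P0 and 4.99 and 5.21 at P8. On this scale the passages lay apart at both distal sites, but pileup over median background at the nearer one gave 21.0 and 22.7 for P0 beside 19.5 and 20.3 for P8. The site at the start of Wtap had fold enrichments of 8.87, 8.12, 7.65 and 8.02.

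At Sod3, the extracellular enzyme (chromosome 5), the start-site values were 8.55 and 10.4 at P0 and 7.02 and 8.45 at P8, with the lower P0 library only just above the higher P8 library. The largest relative gap was inside the gene, 2.85 kb from its lower-numbered end (chr5:52366658-52367074), with 9.12 and 8.09 at P0 and 3.85 and 4.35 at P8. All 4 libraries had this peak, and the P8 values were far below both P0 values. Sod3 also had 2 sites called in the P0 pair alone, at 27.8 kb below the gene and at 20.1 kb inside Ccdc149. In the other direction, a site 34.7 kb below the gene had 4.55 in P0 library A, no peak in P0 library B, and 4.94 and 6.57 at P8.

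Cat, which encodes catalase (chromosome 2), had start-site fold enrichments of 13.6 and 13.8 at P0 and 12.9 and 10.6 at P8. The passages did not overlap. The log2 ratio was −0.23 as deposited, −0.02 relative to all genes and −0.55 for pileup over median background. Without P8 library A the deposited ratio was −0.37, and without P8 library B it was −0.09. Inside the gene, the site 23.0 kb from the start had 7.66, 6.85, 6.91 and 7.49, with no order by passage, and the site at 28.2 kb had 3.99 and 5.43 at P0 and no peak at P8. A site 33.5 kb upstream (chr2:103518701-103519091) ran the other way, with 5.38 and 5.03 at P0 and 7.91 and 6.57 at P8, a ratio of P8 over P0 of 1.39. That ratio was the highest among the 7 sites higher in both P8 libraries. Within Elf5, a site 45.1 kb from the Cat start had 10.3 and 8.70 at P0 and 5.44 and 6.57 at P8.

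Of the NRF2 target genes, Hmox1 (chromosome 8) had the largest ratio between passages in deposited fold enrichment at its start among the members (in the difference of means Gstm5 was larger), though on the scale of pileup over median background Sod1 (−0.72) exceeded it (−0.57), and relative to all genes Gstm2 did (0.50 against −0.35). Its fold enrichments were 8.95 and 9.80 at P0 and 6.60 and 6.16 at P8. The means were 9.37 ± 0.596 and 6.38 ± 0.307 (SD, n = 2), a ratio of 1.47. A site 21.5 kb below the gene showed a gap of the same direction, with 9.96 and 12.4 at P0 and 6.14 and 6.51 at P8. The strongest site of the window, 9.32 kb below the gene, had 13.5 and 12.7 at P0 and 12.0 and 12.5 at P8 and was nearly level. The site nearest the start on that side, at 3.80 kb, had 4.66 and 4.75 at P0 and 4.83 and 5.88 at P8, but it was not higher at P8 once pileup was divided by the median background of each library.

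Nqo1 (chromosome 8) was the only member whose start-site values overlapped between the passages, with 11.5 and 13.3 at P0 and 9.77 and 12.6 at P8. Inside the gene, 1 site 6.74 kb from the start had 5.27 in P0 library A and 5.67 in P8 library B only. The neighbouring starts differed more, with 11.7 and 13.3 at P0 and 7.89 and 8.95 at P8 at Nob1 and 8.80 and 9.63 at P0 and 7.21 and 5.64 at P8 at Wwp2. A site inside Wwp2, 46.2 kb upstream of Nqo1, had 4.55 and 5.49 at P0 and 5.93 and 6.52 at P8.

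Nfe2l2 (chromosome 2), which encodes NRF2, had the most sites, 24. At its start, a broad site of 1625 bp had 7.59 and 8.34 at P0 and 7.58 and 7.44 at P8. P0 library A and P8 library A differed little. Relative to all genes both P8 libraries were higher, with a log2 ratio of 0.13. The ratio was −0.08 as deposited and −0.29 for pileup over median background. Without P0 library A the deposited ratio was −0.15, and without P0 library B it was −0.02. A weak separate site 459 bp upstream of the start had 2.64 and 2.28 at P0 and 2.97 and 3.01 at P8. It was not higher in both P8 libraries when pileup was divided by median background. Inside the gene, the site 18.5 kb from the start had 9.20 and 9.17 at P0 and 7.83 and 7.70 at P8. Of its sites, 12 had P0 peaks only, and 4 of them were called in both libraries of that passage. These 4 were weak: inside Nfe2l2 the values were 3.39 and 3.40 at 6.37 kb and 2.69 and 4.30 at 5.49 kb, and at Gm50595 they were 3.28 and 3.70 and then 3.55 and 3.31. Beyond the gene, at 61.1 kb, a stronger site had 10.6 and 11.9 at P0 and 7.30 and 8.15 at P8. The start of Hnrnpa3 in the same window had 9.67, 9.71, 8.62 and 10.2, with no order by passage.

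The other genes of glutathione metabolism and antioxidant defence were described in the same way, beside the shares over all genes. They were a list of 54 with the peroxiredoxins, thioredoxins, glutathione peroxidases and further transferases. In this list, Gstm3, Gstm4, Gstm6 and Gstm7 lie near members and share peaks with them. Mt1 and Mt2 had the same peak numbers in every library. Gstm6, Gstm7, Mt1 and Mt2 are all counted in the 31 below. Peak number was higher in both P0 libraries around 31 of the 54 (57.4%) and higher in both P8 libraries around 0, beside the 48.3% and 3.95% of all genes. With a window of 10 kb these were 16 (29.6%) and 4 (Prdx2, Txn1, Mafg and Fth1), beside 35.9% and 5.27% of all genes. With equally many peaks per library they were 12 (22.2%) and 9 (16.7%), beside 16.3% and 21.6% of all genes. At the start, 28 of 52 with a peak (53.8%) were higher in both P0 libraries and 0 in both P8 libraries, beside the 61.6% and 3.81% of all genes. The median log2 ratio was −0.23, as over all genes (−0.23). Of the list, 48 (88.9%) had at least 1 site called in the P0 pair and in neither P8 library, against 78.9% of genes, and 6 of the 10 members had one. A site called in the P8 pair and in neither P0 library lay near 13 of the 54 (24.1%), against 19% of genes, and near 0 of the 10 members.

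Those 13 genes were Gsr, which reduces oxidised glutathione, the transferases Gsta4, Gsto1 and Mgst3, the peroxiredoxins Prdx2 and Prdx3, Txn2 and Txnrd1 of the thioredoxin system, the ferritin gene Fth1, G6pdx, which supplies NADPH, the metallothioneins Mt1 and Mt2, and Msra, which repairs oxidised methionine. Most of the sites were weak. The strongest by both libraries was shared by Mt1 and Mt2, 28.1 kb from the Mt1 start, with fold enrichments of 9.39 and 6.04. The Gsto1 site lay 0.825 kb upstream of the start, with 3.37 and 4.83. The Fth1 site at 6.58 kb had 2.82 and 2.83, and the Prdx2 site at 5.98 kb had 2.49 and 2.48. The genes with the most sites of the opposite kind, called in the P0 pair alone, were Txnrd1 (7), Gstt1 (6), and Mgst2 and Txn1 (5 each). Txnrd1, the cytosolic thioredoxin reductase, had sites of both kinds, and its start-site values of 7.53 and 8.44 at P0 and 8.62 and 8.22 at P8 overlapped.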

How the data were processed

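ATAC-seq libraries of P0 and P8 chondrocytes, 2 of each, were used as the authors' MACS2 peak tables. The authors aligned reads with Bowtie2 and called peaks in each library separately with MACS2; the submitters' processing notes name the build mm10. How duplicate or multiply aligned reads were treated is not given in the sources used here. Each deposited peak carries its pileup (signal, in tags without depth scaling by the authors), a fold enrichment (ratio to local background) and −log10 values of p and q. Another deposited table holds the authors' own DiffBind comparison of the passages, with log2 fold changes, p-values and FDR; none of it was used.

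Peaks in or within 50 kb of 10 listed genes (RefSeq, GRCm38.p6) were taken, and peaks overlapping by at least 1 bp were merged into sites. Libraries were told apart by the start of the peak names, and 0 columns of per-library values were left unused. Start sites came from RefSeq promoter sequences for 8 of the 10 genes and 47 of 54 further genes; for the rest either gene end counted. Background was computed from pileup and fold enrichment, and the deposited −log10 p-values then equalled Poisson values within 0.000190. A call meant that both libraries of one passage exceeded both of the other. All listed members were named, with further pathway genes holding a site called in the P8 pair and in neither P0 library, or with the 3 highest numbers (4 genes with ties) of sites called in the P0 pair alone, and genes holding sites in the windows. The planned peak-sequence search was not run, since no genome was used. Members, gene lists and tests were chosen with earlier results of these data known. Depth is known only as background tags, so read counts per site and their intervals are not given. Merging, distances and calls were tested on simulated data. Computations ran in Python 3.11.15 (pandas 2.3.3, numpy 2.4.6, scipy 1.17.1), and figures were drawn with matplotlib 3.10.9.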

Additional observations from a re-analysis of the deposited data

How the results depend on the processing

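No paired analysis was possible because the peak names carry no replicate numbers. With a window of 10 kb there were 53 member sites, 19 with P0 peaks only, 27 with peaks at both passages and 6 with peaks in both P0 and no P8 library; more peaks in both P0 libraries were found around 2 members and 16 further pathway genes, and more in both P8 libraries around 4 pathway genes. With 100 kb these were 242 sites, 90 with P0 peaks only, 19 with P8 peaks only, 133 at both passages, 37 in both P0 and no P8 library and 1 in both P8 and no P0 library. With an equal number of peaks per library the ratio of P0 to P8 turned to 0.944, and there were 15 sites with P0 peaks only, 4 in both P0 and no P8 library, 3 in both P8 and no P0 library, 0 members with more peaks at P0 and 1 with more at P8. At a −log10 q of at least 5, there were 81 sites, 24 with P0 peaks only, 5 with P8 peaks only, 8 in both P0 and no P8 library and 1 in both P8 and no P0 library. Divided by each library's median over all genes, start-site fold enrichment was higher at P0 for 2 members and at P8 for 2, and the log2 ratio changed sign for Gstm1 (0.0275), Sod2 (0.0923), Nqo1 (0.0543) and Nfe2l2 (0.125). Chosen after seeing the data, division by the median of sites held by all libraries gave 33 member sites higher at P0 and 21 at P8. Fewer peaks or sites enter under the smaller window and the stricter threshold; otherwise the cause was not tested. Matched lowest background, an overlap of 50%, a start distance of 3 kb and pileup over median background moved no count by over 1.5 times, but the last moved start-site log2 ratios by over 1.5 times for all members except Gstm5, Sod3 and Hmox1, and the median of all genes from −0.23 to −0.52. With genes of every biotype as background, 46.6% had more peaks at P0 and 4.29% at P8.

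Leaving out each library in turn, the ratio of peak number ranged from 1.20 to 1.47, members with more peaks at P0 from 4 to 7 and at P8 from 0 to 2, sites from 110 to 129, sites with P0 peaks only from 25 to 68, with P8 peaks only from 2 to 17, at both passages from 54 to 71, in every P0 and no P8 library from 14 to 39, and in every P8 and no P0 library from 0 to 8. Member sites higher by fold enrichment ranged from 54 to 82 at P0 and from 9 to 25 at P8, also chosen after seeing the data, and member starts from 8 to 9 at P0 and stayed at 1 at P8. The start-site log2 ratio of P8 over P0 ranged from −0.32 to −0.04 for Gstm1 and from 0.22 to 0.45 for Gstm2. It ranged from −0.43 to −0.15 for Sod3 and from −0.34 to 0.03 for Nqo1. With a library left out, a call needs fewer libraries and is easier to make, so these counts are not comparable with those from all 4 libraries. A library left alone has no spread of its own. A peak that was not called may be open below the threshold, and the P8 libraries were shallower.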
